A study of Mus musculus with 6 samples.

Results

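The Polycomb group genes examined here were Ezh1, Ezh2, Eed, Suz12, Jarid2, Bmi1, Rnf2, Cbx2, Cbx7 and Mbtd1, 10 genes of the 18193 represented on the array by at least 1 probe set that matched a single gene. They were followed in micro-dissected mouse cochlear sensory epithelia (CSE), the strip of the cochlea that holds the sensory hair cells and their supporting cells. Swiss Webster mice at postnatal day 3 (P3) were compared with adults of 8 weeks, for which no treatment or engineered allele is given, and each stage had 3 arrays. Each array was hybridised with RNA from a separate pool of 40 CSE dissected from 20 mice, so the spread between arrays was a spread between pools and not between animals. The P3 dissection included the greater and lesser epithelial ridges, whereas the adult dissection included inner sulcus and interdental cells, and at both stages most of the spiral ganglion had been taken away.

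Polycomb group proteins work as chromatin-modifying complexes that keep developmental genes silent. Polycomb repressive complex 2 (PRC2) methylates lysine 27 of histone H3 through Ezh2 or Ezh1, held together by Eed and Suz12, and PRC1 ubiquitinates histone H2A through Rnf2 (Ring1b) and Ring1, aided by Bmi1 or a related Pcgf protein, with Cbx proteins reading the H3K27 mark. Ezh2 is characteristic of dividing progenitors and Ezh1 of non-dividing differentiated cells, and among the genes that these complexes repress are the Hox genes and several inhibitors of the cell cycle.

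The signals were on the linear scale of the array software, in which the trimmed mean of every array was set to 100. The background of an array was taken as the level that 90 percent of 83 chemosensory receptor probe sets (olfactory, vomeronasal or bitter taste) did not exceed, and it ranged from 6.29 to 34.5. It was highest on the first P3 array, where only 47.4% of probe sets exceeded it, against 58.6% to 68.1% on the other 5 arrays. On that array the Gapdh control probe sets gave a 3′ to 5′ signal ratio of 82.0, and 2.07 on the first adult array, against 0.71 to 1.22 on the other 4, so both replicate 1 arrays stood apart in a measure of RNA or cDNA integrity. Prestin (Slc26a5), the motor protein of outer hair cells, was above background on 0 of 6 arrays, while 4 of 8 listed hair cell markers were above it on all 6 and 7 of 8 supporting cell markers were.

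Of the 10 genes, 3 were up-regulated at P3 (Ezh2, Rnf2 and Mbtd1), 2 were up-regulated in the adult (Ezh1 and Cbx7) and 5 did not pass the test (Eed, Suz12, Jarid2, Bmi1 and Cbx2), each gene being taken at its brightest probe set. A gene passed where limma gave an adjusted p below 0.05 and the stages differed at least 2-fold. Among all 13743 genes measured, 5.54% passed with a higher signal at P3 and 4.58% with a higher signal in the adult. The 3 arrays of one stage all lay above the 3 of the other for 5 of the 10 genes, and for 36.3% of all genes. The median log2 fold change of the 10 genes was -0.22, against -0.04 over all genes, and the median of its absolute size was 0.91 against 0.52. The 10 genes had been chosen with earlier results of these data known, so these differences from all genes cannot be read as a trait of Polycomb genes. Since these were bulk samples, fewer cells of a type and less RNA per cell cannot be told apart.

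The 10 genes had 32 single-gene probe sets, of which 24 exceeded background on at least 3 of the 6 arrays. Of these 24, 4 passed as higher at P3 and 2 as higher in the adult, while among all 29036 probe sets kept 7.26% passed in either direction. At the brightest probe set, 9 of the 10 genes were above background on all 6 arrays, the exception being Cbx7, which exceeded it on 2 of the 3 P3 arrays.

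**Figure D1:**
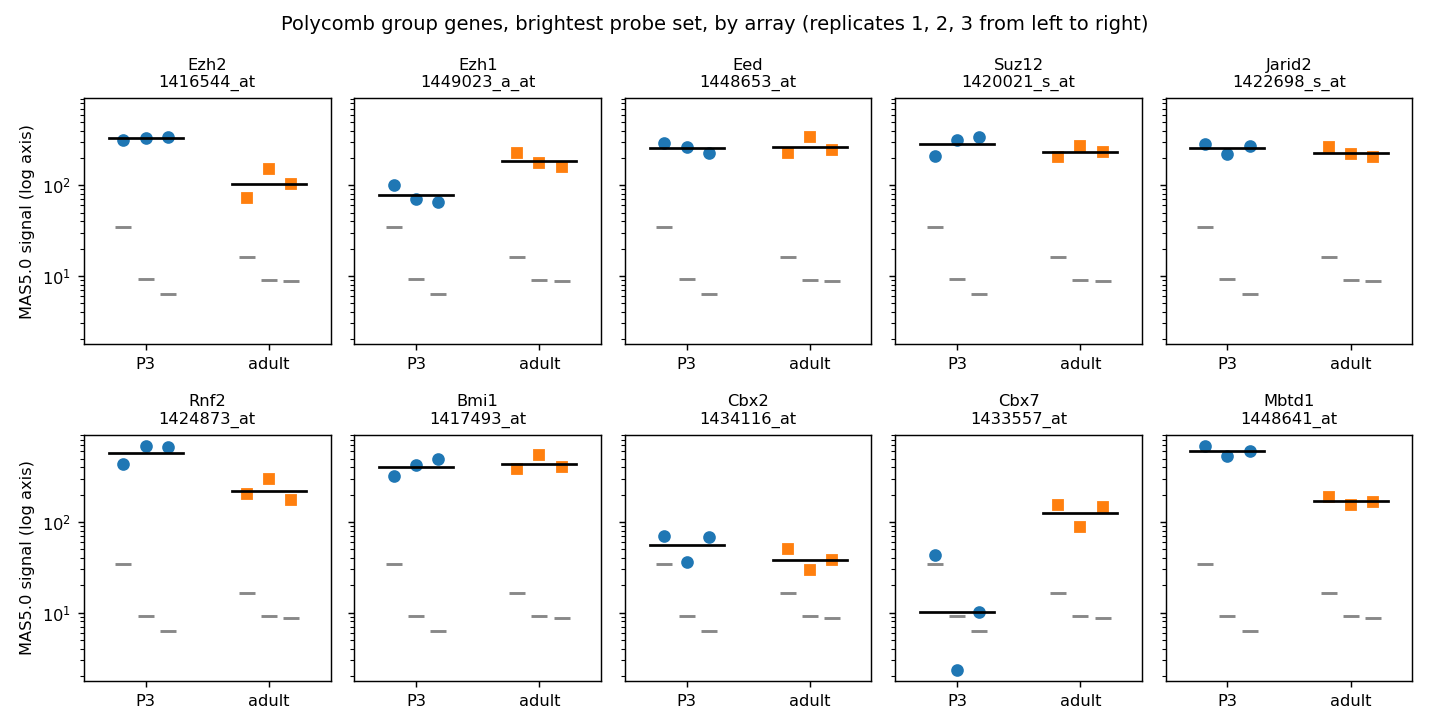
Signal (log axis, trimmed mean of each array set to 100) of the brightest probe set of each of the 10 Polycomb genes on the 3 P3 and 3 adult arrays, replicates 1, 2 and 3 from left to right, with geometric means as black lines and the background of each array as grey dashes. The stages do not overlap for Ezh2, Ezh1, Rnf2, Cbx7 and Mbtd1, and they overlap for the other 5 genes.

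Ezh2, the catalytic subunit of PRC2 in dividing cells, was higher at P3, whereas Ezh1, its paralog, was higher in the adult. Ezh2 lies on chromosome 6 (47530274 to 47595270, GRCm38.p6) and gave signals of 318, 331 and 338 at P3 and of 72.3, 151 and 103 in the adult (probe set 1416544_at). The P3 arrays were nearly level and the lowest of them was more than 2 times the highest adult array, which was replicate 2. The means were 329 ± 9.89 at P3 and 108.7 ± 39.7 in the adult (SD, n = 3 each), a 3.16-fold difference with a log2 fold change of -1.66 (adult minus P3, SE 0.29, 95% confidence interval -2.33 to -0.995, limma adjusted p = 0.0134). The direction held with each array left out in turn, but the adjusted p rose to 0.0537 without P3 replicate 3 and to 0.0690 without adult replicate 3.

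Ezh1, on chromosome 11 (101191115 to 101226463), gave 99.9, 71.0 and 64.7 at P3 and 225, 176 and 161 in the adult (probe set 1449023_a_at). Every adult array was above every P3 array, and replicate 1 was the highest at both stages. The means were 78.6 ± 18.8 and 187 ± 33.5 (SD, n = 3 each), a 2.40-fold difference with a log2 fold change of 1.26 (SE 0.28, 95% confidence interval 0.63 to 1.89, limma adjusted p = 0.0301). This call was the less stable of the pair. Leaving out any array other than P3 replicate 1 moved the adjusted p to between 0.0631 and 0.111. The log2 fold changes of those fits stayed between 1.12 and 1.365. A dimmer Ezh1 probe set, 1418290_a_at, gave 6.74, 19.6 and 15.9 at P3 and 84.6, 34.7 and 26.98 in the adult, again without overlap, with a log2 fold change of 1.75 and an adjusted p of 0.137. P3 replicate 1 lay below its background there, and the log2 fold change was 0.96 with signals floored. The remaining Ezh1 probe sets, 1429629_at and 1429630_at, were not above background on enough arrays to be tested.

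The opposite movements of the paralogs were put into a single value per array, the log2 signal of Ezh2 minus that of Ezh1. Different probe sets have different brightness, so only the change of this value between stages can be read, not its sign. It was 1.67, 2.22 and 2.39 on the P3 arrays and -1.64, -0.22 and -0.64 on the adult arrays. All P3 values exceeded all adult values, and the mean fell from 2.09 ± 0.37 to -0.83 ± 0.73 (SD, n = 3 each). The change of -2.92 corresponded to a 7.59-fold shift of Ezh2 relative to Ezh1, with a two-sided exact permutation p of 0.1, the smallest that 3 against 3 arrays can give. It ranged from -3.23 to -2.52 when single arrays were left out. Ezh2 and Ezh1 each already separated the stages, in opposite directions, so their difference had to separate them too. The permutation p was thus fixed in advance and adds nothing to the results of the single genes.

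The promoters of these paralogs are printed because their genes moved in opposite directions. The windows run from 250 bases before the annotated start to 20 bases after it, on the strand of the gene (RefSeq, GRCm38.p6), at chr6:47595011-47595280 for Ezh2 and chr11:101226444-101226713 for Ezh1, both on the minus strand. Capitals mark the motifs searched on both strands, namely 3 forms of the E2F motif (TTTCGCGC, TTTGGCGC and TTTCCCGC), the CCAAT box (CCAAT) and the GC box (GGGCGG), which do not overlap here.
Ezh2: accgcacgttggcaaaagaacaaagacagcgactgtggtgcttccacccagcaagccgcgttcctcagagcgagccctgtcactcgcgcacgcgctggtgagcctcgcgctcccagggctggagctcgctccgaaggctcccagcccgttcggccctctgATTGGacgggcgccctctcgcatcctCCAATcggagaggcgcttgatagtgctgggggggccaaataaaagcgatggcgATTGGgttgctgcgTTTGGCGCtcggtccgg
Ezh1: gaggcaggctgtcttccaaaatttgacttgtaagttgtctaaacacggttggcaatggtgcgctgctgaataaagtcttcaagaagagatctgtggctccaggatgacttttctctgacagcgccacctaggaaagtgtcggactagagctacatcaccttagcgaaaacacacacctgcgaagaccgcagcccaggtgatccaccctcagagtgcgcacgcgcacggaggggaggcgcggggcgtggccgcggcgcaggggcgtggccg
The Ezh2 window belongs to a start inside the annotated span of the gene. It held 1 E2F form, TTTGGCGC, at bases 4 to 11 after the start, and 3 CCAAT boxes. The Ezh1 window held none of these letters. Of all 32851 promoter windows of this length, 1.66% held an E2F form and 3.05% held 3 or more CCAAT boxes. The Ezh2 window had 27 CpG dinucleotides and the Ezh1 window 19, against a median of 6 over all promoters. A match is a description of the letters in the window, and no binding was measured.

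**Figure D2:**
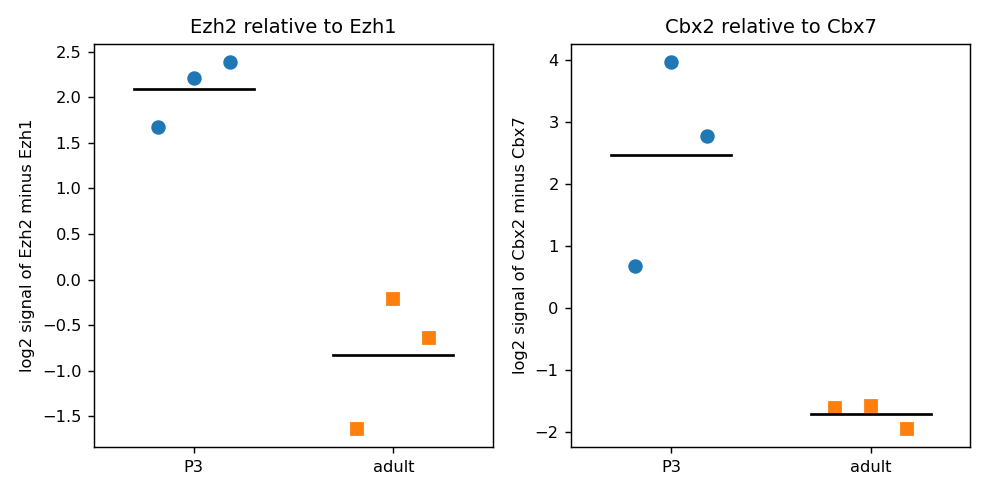
Log2 signal of Ezh2 minus Ezh1 (left) and of Cbx2 minus Cbx7 (right) on each P3 and adult array, 1 point per array with the mean of the stage as a line. In both panels all 3 P3 values lie above all 3 adult values, and only the change between stages can be read. The highest Cbx2 minus Cbx7 value, 3.96, was taken against a Cbx7 signal below background.

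The non-catalytic PRC2 genes did not pass the test. Eed, the subunit that binds the methylated histone tail, gave 292, 263 and 229 at P3 and 225, 341 and 242 in the adult (probe set 1448653_at), with a log2 fold change of 0.02 (SE 0.24, 95% confidence interval -0.53 to 0.57, limma adjusted p = 0.966). The highest and the lowest of the 6 values were both adult arrays. A second Eed probe set, 1453830_at, was close to background, with a log2 fold change of -0.91 (SE 1.09).

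Suz12, which joins the catalytic subunit to the rest of PRC2, gave 211, 314 and 341 at P3 and 207, 269 and 232 in the adult (probe set 1420021_s_at). The first array of each stage was the lowest of its stage, and the stages overlapped. The log2 fold change was -0.27 (SE 0.25, 95% confidence interval -0.85 to 0.31, limma adjusted p = 0.571). The low replicate 1 arrays stood out more at probe set 1452364_at, which gave 29.99, 144 and 134 at P3 and 33.0, 127 and 75.6 in the adult. There the replicate 1 arrays, which also had the highest 3′ to 5′ ratios, were the lowest of all 6 arrays, and the part of array integrity in these values was not tested. None of the 5 tested Suz12 probe sets passed, their log2 fold changes ranging from -0.52 to 0.36.

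Jarid2, a DNA-binding partner that helps to bring PRC2 to chromatin, gave 286, 223 and 268 at P3 and 267, 220 and 203 in the adult (probe set 1422698_s_at). These values overlapped, with a log2 fold change of -0.18 (SE 0.22, 95% confidence interval -0.68 to 0.33, limma adjusted p = 0.681). At its dimmer probe sets all P3 arrays were above all adult arrays without passing the test. Probe set 1422697_s_at gave 183, 175 and 161 against 141, 113 and 116 (log2 fold change -0.49, adjusted p = 0.231). Probe set 1450710_at gave 50.8, 56.9 and 61.8 against 30.4, 41.8 and 28.6 (log2 fold change -0.77, adjusted p = 0.223). The direction was thus shared by the 3 probe sets, and the size was below the 2-fold limit in each.

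Within PRC1, the ubiquitin ligase gene Rnf2 was higher at P3. It lies on chromosome 1 (151469398 to 151500991) and gave 433, 683 and 666 at P3 and 206, 298 and 174 in the adult (probe set 1424873_at). The stages did not overlap, and the lowest P3 value came from replicate 1 while the highest adult value came from replicate 2. The means were 594 ± 140.1 and 226 ± 64.2 (SD, n = 3 each), a 2.65-fold difference with a log2 fold change of -1.40 (SE 0.29, 95% confidence interval -2.06 to -0.75, limma adjusted p = 0.0232). The call was lost without P3 replicate 2 (adjusted p = 0.0876), P3 replicate 3 (0.0849), adult replicate 1 (0.0614) or adult replicate 3 (0.118), with log2 fold changes from -1.62 to -1.23 over all 6 omissions.

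A second Rnf2 probe set, 1451519_at, gave 269, 461 and 386 at P3 and 141, 242 and 156 in the adult. Its stages were also separate, with the same arrays lowest and highest, and its log2 fold change of -1.06 (SE 0.30) narrowly missed the threshold at an adjusted p of 0.0696. The mean over both probe sets fell by 1.23 on the log2 scale and passed (limma adjusted p = 0.0287). The other 3 Rnf2 probe sets stayed near or below background and were not tested.

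Bmi1 (Pcgf4), which stimulates the ligase activity of Rnf2, was not called at either of its probe sets. Its brightest, 1417493_at, gave 320.0, 422 and 494 at P3 and 386, 542 and 408 in the adult, for a log2 fold change of 0.12 (SE 0.25, 95% confidence interval -0.45 to 0.69, limma adjusted p = 0.816). The stages overlapped there. At 1448733_at they did not, with 222, 370.1 and 339 at P3 against 398, 560.4 and 472 in the adult and a log2 fold change of 0.64 (SE 0.26, 95% confidence interval 0.04 to 1.24, adjusted p = 0.187). The unadjusted p of that probe set was 0.0397.

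Cbx2 and Cbx7 encode chromodomain proteins that compete for the same place in canonical PRC1. Cbx7, on chromosome 15 (79915804 to 79971143), was higher in the adult. It gave 43.7, 2.34 and 10.1 at P3 and 155, 86.9 and 146 in the adult (probe set 1433557_at). Every adult array was well above its own background, whereas P3 replicate 2 lay below it and P3 replicate 1, with the highest background of all arrays, gave the highest P3 value. The means were 18.7 ± 22.0 and 129 ± 36.7 (SD, n = 3 each), a 12.4-fold difference on the geometric scale with a log2 fold change of 3.63 (SE 0.92, 95% confidence interval 1.53 to 5.73, limma adjusted p = 0.0491).

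The size of the Cbx7 difference depended on the dim P3 arrays. With signals below background raised to the background of their array, the log2 fold change was 2.97 (adjusted p = 0.00900), and with the mean background added to all signals it was 2.30 (adjusted p = 0.0183). It was 4.69 without P3 replicate 1 (adjusted p = 0.00644) and 2.58 without P3 replicate 2 (adjusted p = 0.0670). Without any one of the other 4 arrays it lay between 3.48 and 3.89, and the call was lost each time (adjusted p from 0.0881 to 0.186). The direction was the same in each of these. A dim second probe set, 1449713_at, overlapped between stages, with a log2 fold change of -0.31 (SE 0.83, adjusted p = 0.861), and the mean over both probe sets was 1.66 and not called (adjusted p = 0.221). Probe set 1420039_s_at was above background on 0 arrays.

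Cbx2, on chromosome 11 (119023019 to 119031275), gave 70.0, 36.5 and 68.8 at P3 and 50.5, 29.3 and 38.01 in the adult (probe set 1434116_at). The stages overlapped, and replicate 2 was the lowest array of both. The log2 fold change was -0.55 (SE 0.41, 95% confidence interval -1.48 to 0.38, limma adjusted p = 0.460). Set against Cbx7 on the same array, the log2 signal of Cbx2 minus Cbx7 was 0.68, 3.96 and 2.77 at P3 and -1.61, -1.57 and -1.94 in the adult. The value of 3.96, on P3 replicate 2, was taken against a Cbx7 signal below background, and with Cbx7 raised to the background of that array it was 1.99. As measured, the mean fell from 2.47 ± 1.66 to -1.71 ± 0.20 (SD, n = 3 each), a change of -4.18 with an exact permutation p of 0.1. With signals floored at background the P3 mean was 1.82 ± 1.06 and the change -3.52. The measured change ranged from -5.07 to -3.43 when single arrays were left out and was -2.21 when the probe sets of each gene were averaged, and most of it came from Cbx7.

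The promoters of Rnf2 (chr1:151500972-151501241, minus strand) and Cbx7 (chr15:79932627-79932896, minus strand) are shown as the PRC1 genes that were called in opposite directions, with the same motifs in capitals.
Rnf2: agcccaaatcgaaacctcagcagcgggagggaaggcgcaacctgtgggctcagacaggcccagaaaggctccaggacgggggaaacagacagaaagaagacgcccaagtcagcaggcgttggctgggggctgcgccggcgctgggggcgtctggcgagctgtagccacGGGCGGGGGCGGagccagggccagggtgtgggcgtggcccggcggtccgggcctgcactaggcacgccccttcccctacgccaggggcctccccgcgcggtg
Cbx7: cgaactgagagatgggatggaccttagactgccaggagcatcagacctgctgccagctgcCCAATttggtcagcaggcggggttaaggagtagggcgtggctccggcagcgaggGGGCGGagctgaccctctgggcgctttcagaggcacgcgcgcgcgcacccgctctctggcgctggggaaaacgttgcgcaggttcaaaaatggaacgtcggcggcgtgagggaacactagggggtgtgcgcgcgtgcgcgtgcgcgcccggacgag
The Rnf2 window held 2 GC boxes, starting at 82 and 76 bases before the start, and none of the E2F forms or CCAAT boxes. The Cbx7 window also belongs to an annotated start inside the span of the gene, and it held 1 CCAAT box and 1 GC box and none of the E2F forms. A CCAAT box was present in 35.39% of all promoter windows and a GC box in 34.15%. RefSeq windows were matched for 9 of the 10 genes, some with more than 1 start, and the 11 windows had 15 to 41 CpG dinucleotides. Suz12 was the only other gene among the 9 with an E2F form, TTTCCCGC.

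Mbtd1, a protein with malignant brain tumour (MBT) repeats that bind methylated histones and a subunit of the TIP60 acetyltransferase complex in human cells, had the lowest adjusted p of the 10 genes and was higher at P3. It lies on chromosome 11 (93885850 to 93946989) and gave 692, 536 and 604 at P3 and 187, 155 and 167 in the adult (probe set 1448641_at). The lowest P3 array was more than 2 times the highest adult array. The means were 611 ± 77.9 and 169.5 ± 16.4 (SD, n = 3 each), a 3.59-fold difference with a log2 fold change of -1.85 (SE 0.21, 95% confidence interval -2.33 to -1.36, limma adjusted p = 0.00251). This was the only called probe set of the 10 genes that kept its call in all 16 other settings, with a highest adjusted p of 0.0392.

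A second Mbtd1 probe set, 1417261_at, was also called, with 88.9, 204 and 219 at P3 and 24.4, 40.03 and 35.7 in the adult. Replicate 1 was the lowest array of each stage, and the stages were separate, and limma gave a log2 fold change of -2.28 with an SE of 0.41 and an adjusted p of 0.0152. That call was lost without P3 replicate 2 (adjusted p = 0.0661), P3 replicate 3 (0.0680) or adult replicate 3 (0.0647). The other Mbtd1 probe sets did not pass. Probe set 1441100_at gave 3.37, 28.6 and 37.0 at P3 and 52.2, 39.1 and 68.4 in the adult, with every adult array above every P3 array and a log2 fold change of 1.76 (SE 0.86, adjusted p = 0.257). That value rested on P3 replicate 1, where the signal lay far below the background of 34.5, and it was 0.67 without that array and 0.64 with signals floored at background. Probe set 1441287_at overlapped between stages (log2 fold change 0.24, adjusted p = 0.858, and -0.052 with signals floored). The mean over all 4 was -0.53 and not called (adjusted p = 0.351).

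**Figure D3:**
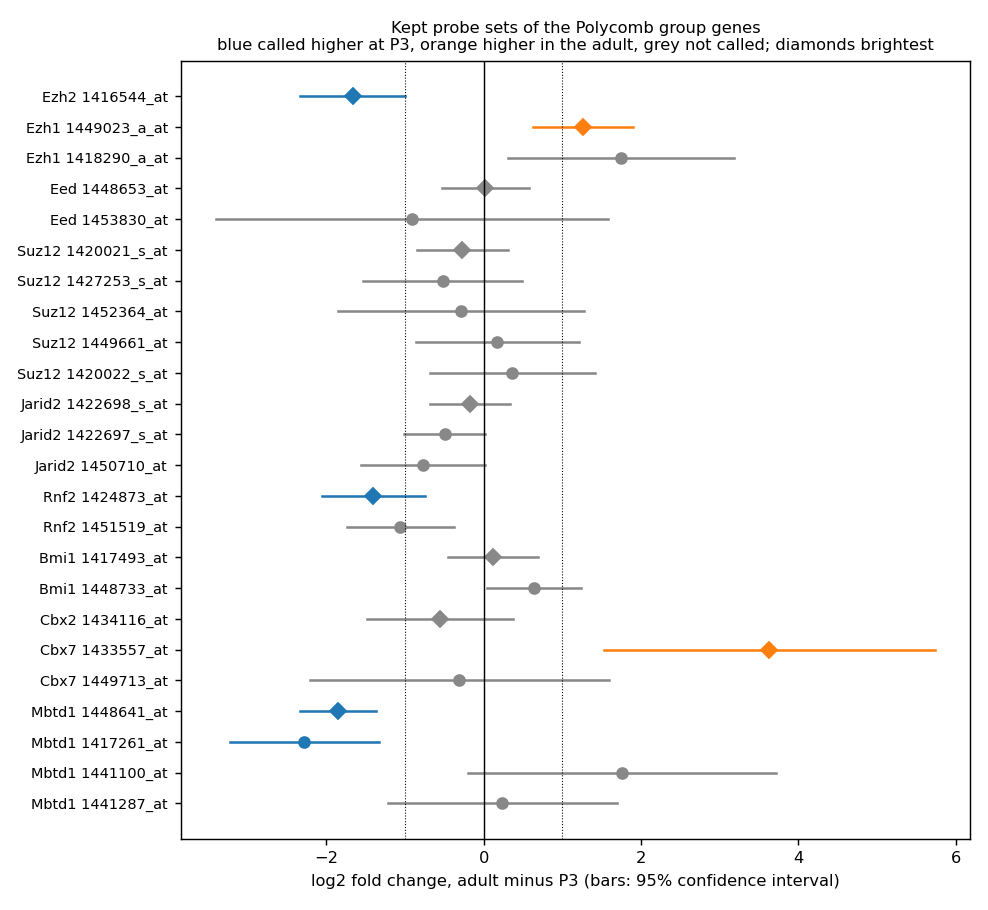
Log2 fold change (adult minus P3) with its 95% confidence interval for each of the 24 tested probe sets of the 10 Polycomb genes, the brightest of each gene as a diamond. The 4 probe sets called higher at P3 (blue) belong to Ezh2, Rnf2 and Mbtd1, the 2 called higher in the adult (orange) to Ezh1 and Cbx7, and the other 18 (grey) were not called.

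The partners of the 10 genes were called about as often at P3 as genes in general. Of 41 further Polycomb genes in 3 lists, 36 were measured, 2 were higher at P3, 0 were higher in the adult and 34 did not pass, with a median log2 fold change of -0.22, where 5.54% of all genes passed at P3, 4.58% in the adult and 10.1% in either direction. Of the 7 measured PRC2 partners 0 passed by limma, and 1 (Phf1) had an unadjusted p below 0.05. Among the 19 measured PRC1 partners only Kdm2b passed, and among the 10 measured genes of the PhoRC, PR-DUB and MBT groups only Asxl3 did. Kdm2b, which binds unmethylated CpG and recruits a variant PRC1, gave 249.7, 288 and 361 at P3 and 84.3, 129 and 86.7 in the adult. The stages were separate, and the log2 fold change was -1.60 (SE 0.27, limma adjusted p = 0.0111). Asxl3, a partner of the H2A deubiquitinase Bap1, gave 104, 136 and 205 against 36.0, 14.1 and 22.8, again without overlap (log2 fold change -2.66, SE 0.44, adjusted p = 0.0102). Both calls were lost without P3 replicate 3 (adjusted p = 0.0560 for Kdm2b and 0.0517 for Asxl3) and without adult replicate 3 (0.0650 and 0.0535).

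A few partners came close and were picked out after their values were seen. The Bmi1 relatives Pcgf3 and Pcgf5 passed on the adjusted p but not on fold, in opposite directions. Pcgf3 gave 415, 297 and 315 at P3 and 181, 187 and 169.7 in the adult (log2 fold change -0.92, limma adjusted p = 0.0416). Pcgf5 gave 69.5, 79.3 and 65.1 at P3 and 142, 137 and 140.3 in the adult (log2 fold change 0.98, adjusted p = 0.0452). In both genes the stages were separate, but the adjusted p was not stable. With single arrays left out, the limma adjusted p ran from 0.0504 to 0.173 for Pcgf3 and from 0.0407 to 0.182 for Pcgf5. Phf1, a PRC2 partner that binds methylated H3K36, gave 7.07, 36.8 and 42.3 at P3 and 199, 71.2 and 193 in the adult, with P3 replicate 1 below its background (log2 fold change 2.65, SE 0.72, adjusted p = 0.0607). With signals floored at background its log2 fold change was 1.89 (adjusted p = 0.0156), and without P3 replicate 1 it was 1.83 (adjusted p = 0.0477), both past the threshold. Phf1 was called in only 4 of the 16 other settings and in 1 of the 6 fits with an array left out, with limma adjusted p up to 0.231. Ring1, the paralog of Rnf2, overlapped between stages, with 105, 64.6 and 81.9 at P3 and 129, 94.98 and 121 in the adult (log2 fold change 0.47, SE 0.29, adjusted p = 0.368).

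Of 14 measured genes that counteract Polycomb, H3K27 demethylases and Trithorax H3K4 methyltransferase subunits, 0 passed by limma and 2 had an unadjusted p below 0.05 (Wdr5 and Dpy30, subunits of the methyltransferases, named after their values were seen). Of all genes 10.1% passed in either direction, so this count does not set the list apart. Its median log2 fold change was -0.04. The demethylase genes Kdm6a and Kdm6b had log2 fold changes of -0.10 and -0.46, and in both the stages overlapped.

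Among genes that Polycomb is known to repress, 1 of 6 measured cyclin-dependent kinase inhibitors and 1 of 4 measured Hox genes passed. Of all genes 10.1% passed in either direction, so these small counts do not set the lists apart. Cdkn1c (p57Kip2), an inhibitor active in cells leaving the cell cycle, gave 4928, 2716 and 2814 at P3 and 436, 751 and 705 in the adult. Every P3 array was more than 3 times every adult array, and the log2 fold change was -2.45 (SE 0.33, limma adjusted p = 0.00489). Cdkn2a, the best known Bmi1 target, was above background on 0 of 6 arrays. Of 33 Hox genes on the array 4 were measured, or 12.1% against 75.5% of all genes. Hoxa2, a hindbrain and branchial arch gene, passed, with 66.4, 36.5 and 28.4 at P3 and 5.15, 8.97 and 11.5 in the adult (log2 fold change -2.34, SE 0.58, adjusted p = 0.0466), but only 1 of its adult values exceeded background. Its call was lost with each array left out in turn (adjusted p from 0.0591 to 0.145).

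**Figure D4:**
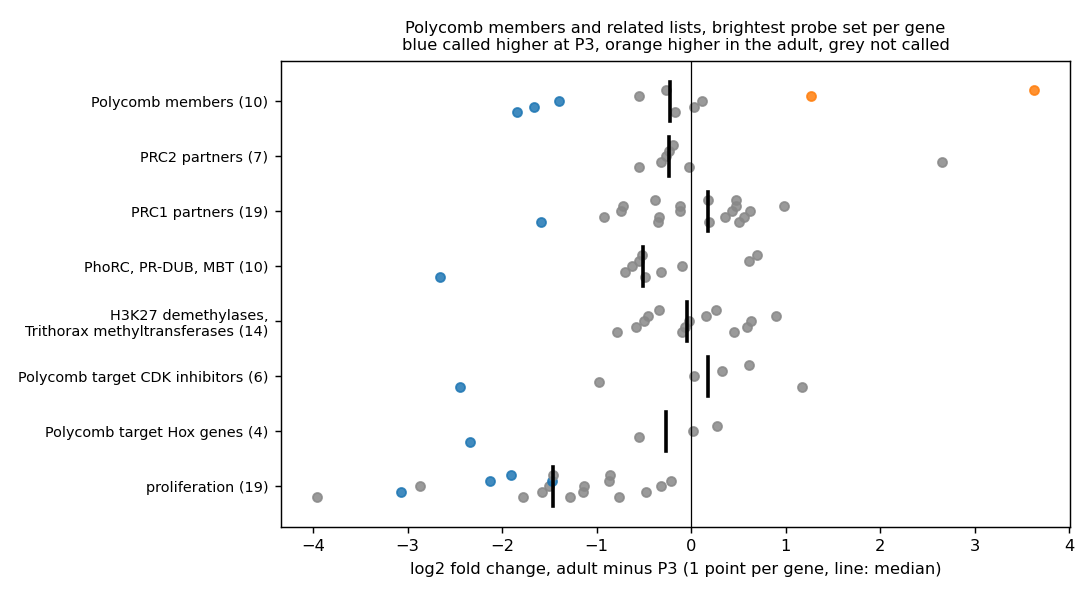
Log2 fold change (adult minus P3) at the brightest probe set of each gene, 1 point per gene, for the 10 Polycomb genes and the related lists, with the number of measured genes in brackets and the median as a line. The proliferation list lies lowest, with a median of -1.47, and the PRC1 partners lie nearest to the adult side among the 3 lists of Polycomb partners, with a median of 0.17.

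Some genes of dividing cells were also higher at P3. Of 19 measured proliferation genes 4 were higher at P3 (Bub1, Cdk1, Top2a and Mcm6), where 5.54% of all genes passed at P3. The other 15 did not pass, 14 of the 19 had an unadjusted limma p below 0.05, and the median log2 fold change was -1.47. Cdk1, the mitotic kinase, gave 119, 118 and 221 at P3 and 23.9, 56.2 and 27.7 in the adult. The summed signal of the list was 3138, 3241 and 4517 on the P3 arrays and 1464, 3201 and 1651 on the adult arrays, so adult replicate 2 was far above the other adult arrays. Pcna made up 1229 of the sum on adult replicate 2, and Mki67, not called, gave 210 there against 139, 110 and 204 at P3. The 4 called genes were lower on adult replicate 2 than on every P3 array, but they were picked by their low adult values. That array was also the adult array with the highest signal of Ezh2, Eed, Suz12, Bmi1 and Rnf2, while replicate 1 was the highest for the other 5 genes. Without adult replicate 2 the number of proliferation genes called rose from 4 to 9, the log2 fold change of Ezh2 went from -1.66 to -1.93 and that of Rnf2 from -1.40 to -1.62. Leaving out P3 replicate 2, P3 replicate 3, adult replicate 1 or adult replicate 3 instead took the proliferation calls to 0, as did scaling to the same median and eBayes without a trend. The part of dividing cells in the Polycomb differences was not tested.

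The arrays also differed in markers of other cell types. Markers of granulocyte precursors, blood-forming cells of the marrow, summed to 132 to 418 at P3 and to 8190, 17350 and 3882 in the adult, with 9 of 10 higher in the adult and 3 of them below background on all P3 arrays. Erythroid markers summed to 70.8 to 178 at P3 and 357, 1053 and 251 in the adult (2 of 6 measured were called), so adult replicate 2 had most of both. Of the 6 erythroid markers 2, among them the called Hemgn, were below background on all P3 arrays. Markers of this kind in any list were kept through their adult arrays alone. Neuronal markers summed to 4359 to 4925 at P3 and 20640, 7402 and 10480 in the adult (2 of 8 higher in the adult). The calls were Snap25 and Scn8a, and Nefl and Nefm were higher on all adult arrays without passing. The stages overlapped for Syt1, Tubb3, Rbfox3 and Stmn2, with log2 fold changes of -1.85 for Syt1 and -0.41 for Stmn2. Adult replicate 1 had the highest neuronal sum, and it was also the adult array with the highest signals of Ezh1, Jarid2, Cbx2, Cbx7 and Mbtd1. Markers of Schwann cells and oligodendrocytes summed to 6331 to 11480 at P3 and 23180, 6776 and 12650 in the adult (2 of 5 measured higher in the adult), again with most on adult replicate 1. Of these calls 1, Mobp, was below background on all P3 arrays. Macrophage markers summed to 1335 to 1939 at P3 and 2405 to 3790 in the adult, with 1 of 8 called in each direction. Their median log2 fold change was -0.13. The adult call was Lyz2, at 141, 161 and 161 at P3 and 876, 2251 and 1310 in the adult. The P3 call was Mrc1. The stages overlapped for Csf1r, Adgre1, Cd68, Cx3cr1 and Aif1, and C1qa was higher on all adult arrays without passing. Fibroblast and mesenchyme markers summed to 16040 to 38240 at P3 and 8097 to 9949 in the adult (2 of 8 higher at P3). Hair cell markers had 0 of 6 measured called, B lymphocyte markers 0 of 5 and endothelial markers 0 of 8 (by limma, with 0, 1 and 0 at an unadjusted p below 0.05). Of all genes 10.1% passed in either direction, so counts of 0 in lists this short do not set them apart. Among 8 supporting cell markers 3 were called toward P3 and 1 toward the adult. The part of these cell types in the Polycomb differences was not tested.

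**Figure D5:**
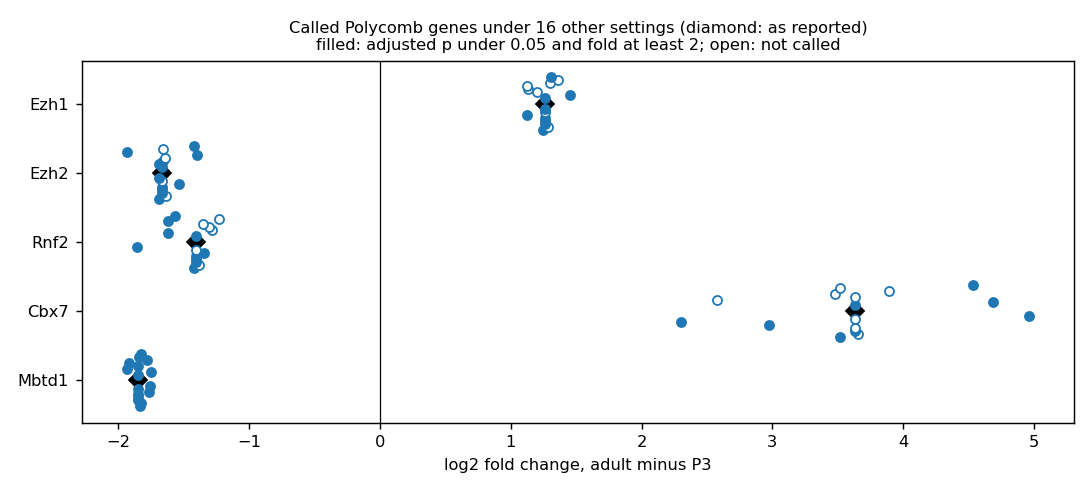
Log2 fold change (adult minus P3) of the brightest probe set of the 5 called Polycomb genes under 16 other settings, filled where the call held and open where it did not, with the reported value as a diamond. No point crosses zero, and the call held in 16 settings for Mbtd1, 12 for Ezh2, 10 for Rnf2, 9 for Ezh1 and 8 for Cbx7.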

How the data were processed

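RNA from 3 pools of P3 CSE and 3 pools of adult CSE had been hybridised to 1-colour whole-genome mouse Affymetrix arrays. The deposited values were MAS5.0 intensity values, which the authors had scaled so that the mean of each array without its lowest and highest 2% was 100. The submitters' processing notes name GCOS 1.2. Log2 of the deposited signal was used here, with no further normalization. No column of the table was left unmapped.

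Of 45101 probe sets, 64 were controls, 34945 matched 1 gene in the platform annotation, 932 several and 9160 none. Probe sets above the receptor background on at least 3 of 6 arrays were kept (29036, for 13743 genes). Stages were compared by limma 3.58.1 in R 4.3.3 (lmFit, eBayes with trend), with Benjamini-Hochberg adjustment over all kept probe sets, checked on simulated data. This replaced the SAM test that the study used. Ratios were tested with scipy 1.17.1. The brightest kept probe set of each gene is the one with the highest mean signal. All 10 genes were named, together with the called genes of each related list, and marker lists were described by counts and summed signals. The members and lists were chosen with earlier results of these data known. The number of arrays limits the precision. Array annotation was the platform's own, and genes and promoters were placed by RefSeq on GRCm38.p6. Nothing else in the sources separated the arrays into batches, and the authors' detection calls were not used. Alternatives were other scalings, filters, background treatments, variance models, probe set averages and omitted arrays.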

Additional observations from a re-analysis of the deposited data

How the results depend on the processing

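The 5 called Polycomb genes kept their direction in each setting tried, while the number of calls changed with the scaling, the variance model, the quality weights and which array was left out. Over all probe sets 2109 were called, against 564 with arrays scaled to the same median, 899 without a trend in eBayes, 7593 with array quality weights and 3527 without both replicate 1 arrays, a setting chosen after seeing the data. Polycomb genes higher at P3 went from 3 to 1 with the same-median scaling and to 1 without the trend, and Polycomb probe sets called from 6 to 1 and 1. Polycomb genes higher in the adult went from 2 to 0 with the same-median scaling, 0 without the trend, 1 with a filter of at least 4 of 6 arrays and 1 with the mean over probe sets. At an unadjusted p below 0.05 and a 2-fold change, limma gave 3 and 2 with the same-median scaling, without the trend and with each array left out. The share of all genes passing this looser rule was not counted. The members had also been chosen with earlier results of these data known, so these counts lend the calls no support. With single arrays left out the counts ranged from 576 to 2839 for all probe sets, from 1 to 3 and from 0 to 2 for Polycomb genes higher at P3 and in the adult, and from 1 to 7 for their probe sets. The cause was not tested.

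Probe sets that changed sign were called neither before nor after. With array quality weights, Eed 1448653_at went to -0.017, Eed 1453830_at to 0.45 and Bmi1 1417493_at to -0.10, and with signals floored at background Mbtd1 1441287_at went to -0.052. The others turned in leave-one-out fits, whose log2 fold changes ranged from -0.16 to 0.14 for Eed 1448653_at, from -1.502 to 0.043 for Eed 1453830_at, from -1.03 to 0.23 for Suz12 1452364_at, from -0.12 to 0.55 for Suz12 1449661_at, from -0.052 to 0.26 for Bmi1 1417493_at and from -0.73 to 0.36 for Cbx7 1449713_at.

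With the replicate number as a block, 3 Polycomb genes were higher at P3, 2 higher in the adult, 7 of their probe sets and 2649 of all probe sets were called. Same-numbered arrays had deviation correlations of 0.18, 0.21 and 0.08, so the numbers were not taken as pairs, although 6 of 6 arrays correlated best with the array of their own number.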
